A study of Homo sapiens with 9 samples.

Results

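A set of 10 genes of chemokine and NF-kB feedback signalling were followed in HL-60 cells resistant to daunorubicin, in HL-60 cells resistant to cytarabine and in their parental line. They were taken by symbol from the normalized count table and make up 10 of its 20637 genes. They comprise the chemokine ligands CXCL8, CXCL10, CCL5, CXCL2 and CXCL3, the chemokine receptor CXCR4, the feedback inhibitors TNFAIP3 and NFKBIA, and the NF-kB subunits NFKB1 and RELB. All 10 reached a value of 10 or more in 3 or more of the 9 libraries and so were among the 12569 genes tested. CXCL10 was the only one of the 10 with a parental mean under 10, so it entered the test through the resistant cells, where it was higher.

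HL-60 is an established promyelocytic cell line from a human acute myeloid leukaemia. HRD cells are the daunorubicin-resistant HL-60 line and were grown in medium with 30 nM of that drug (DNR). HRA cells are the cytarabine-resistant line and were grown in medium with 100 nM of it (Ara-C). Parental HL-60 cells were grown without either drug, and each of the 3 groups had 3 biological replicates of polyadenylated RNA. The labels name 1 resistant line for each drug, so the replicates measure the spread within a line, and resistance cannot be told apart from the drug in the medium or from the history of the line.

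NF-kB is a family of dimeric transcription factors that are held in the cytoplasm by IkB proteins until receptors for cytokines or microbial products, or DNA damage, activate the IkB kinase. Active NF-kB switches on chemokines that draw in neutrophils, monocytes and T cells, and at the same time its own inhibitors, among them IkB-alpha (NFKBIA) and the ubiquitin-editing enzyme A20 (TNFAIP3). Myeloid leukaemia cells carry CXCR4, which binds the stromal chemokine CXCL12 and keeps blast cells in the bone marrow.

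The promoters of these genes show the letters that NF-kB is known to bind. The RefSeq promoter table (GRCh38.p14, 250 bases before to 50 after each transcription start) held 8 of the 10 genes in 11 entries, 3 of them starts of CXCR4 and 2 of NFKB1, and no entry for CCL5 or RELB was used. Both strands were searched for 4 patterns, namely GGAATTTCC and GGNNTTTCC for NF-kB, of which the first is contained in the second, TGANTCA for AP-1, and GAAA followed by any 2 letters and GAAA for interferon-regulated factors. GGAATTTCC was found in the entries of 6 of the 8 genes (CXCL8, CXCL10, CXCL2, CXCL3, NFKBIA and NFKB1) and in 0.461% of all 35116 promoter entries. The wider GGNNTTTCC was found in all 8 genes and in 6.26% of all entries. A gene was counted if any of its entries matched, whereas the percentages are of single entries. Not every entry of CXCR4 and NFKB1 held a match. CXCL8 was the only one of the 8 with TGANTCA, which 7.71% of all entries held, and CXCL10 the only one with the interferon pattern, which 3.57% held. A match describes the letters of the window and is not evidence of binding in these cells. Stretches ending at the base before the start are printed 5′ to 3′ on the gene's strand for the CXC ligands, both inhibitors and NFKB1, to show where the patterns sit, with the matches in capitals.
CXCL8, chr4:73740419-73740568, plus strand: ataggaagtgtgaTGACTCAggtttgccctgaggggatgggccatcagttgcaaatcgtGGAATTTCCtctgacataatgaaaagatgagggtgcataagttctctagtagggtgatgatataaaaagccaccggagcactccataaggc
CXCL10, chr4:76023498-76023727, minus strand: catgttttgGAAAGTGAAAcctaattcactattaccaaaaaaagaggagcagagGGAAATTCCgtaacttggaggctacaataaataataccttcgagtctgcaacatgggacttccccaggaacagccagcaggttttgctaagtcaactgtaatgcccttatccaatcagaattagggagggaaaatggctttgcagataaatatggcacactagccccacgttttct
CXCL2, chr4:74099196-74099295, minus strand: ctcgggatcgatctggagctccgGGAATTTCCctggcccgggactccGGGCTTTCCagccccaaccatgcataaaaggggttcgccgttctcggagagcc
CXCL3, chr4:74038690-74038789, minus strand: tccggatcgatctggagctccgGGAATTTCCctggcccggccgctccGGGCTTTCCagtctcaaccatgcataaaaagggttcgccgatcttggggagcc
TNFAIP3, chr6:137867159-137867258, plus strand: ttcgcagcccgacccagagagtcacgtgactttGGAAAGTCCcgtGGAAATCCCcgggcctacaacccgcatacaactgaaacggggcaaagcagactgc
NFKBIA, chr14:35404750-35404849, minus strand: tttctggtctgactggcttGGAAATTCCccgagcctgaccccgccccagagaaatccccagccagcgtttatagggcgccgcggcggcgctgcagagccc
NFKB1, chr4:102501259-102501358, plus strand: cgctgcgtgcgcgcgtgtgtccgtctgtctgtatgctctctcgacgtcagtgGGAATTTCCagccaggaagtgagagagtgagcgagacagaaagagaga
In CXCL8 the capitals mark the AP-1 pattern at 137 to 131 bases before the start and the NF-kB pattern at 91 to 83 bases before it. In CXCL10 they mark the interferon pattern at 221 to 212 bases before the start and the NF-kB pattern, read on the other strand, at 176 to 168. The other stretches have NF-kB patterns only, and TNFAIP3 carried its pair at 67 to 59 and 55 to 47 bases before the start, on the other strand. The stretches of CXCL2 and CXCL3 were nearly the same text, with 90 of 101 alignment columns identical (89.1%), and both held a GGAATTTCC followed by a further match to GGNNTTTCC.

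Per library, 20822709 to 66563328 reads were recovered from the deposited values, and 3 reads of a gene corresponded to a normalized read count of 1.49 to 4.52. MPO, a defining granule gene of promyelocytes, had 199686 to 256004 normalized reads in HRD, 250410 to 279660 in HRA and 274388 to 314199 in parental libraries. The 6 promyelocyte markers in the table, MPO among them, summed to 210296 to 268439 in HRD, 259040 to 288427 in HRA and 288495 to 331088 in parental libraries. Of the 5 tested, 1 passed as lower in HRD, and 1 as higher and 2 as lower in HRA. Markers of T and NK cells summed to 6.03 to 11.9 in HRD, 26.8 to 43.3 in HRA and 25.8 to 30.7 in parental libraries over the 7 genes in the table, none of which reached the filter. CD14, the defining surface marker of monocytes, had fewer than 10 reads in the 9 libraries together, and the 5 monocyte and macrophage markers in the table summed to 21.8 to 43.7 in HRD, 46.3 to 90.6 in HRA and 34.5 to 82.2 in parental libraries. The 6 markers of mature neutrophils in the table summed to 682 to 941 in HRD, 434 to 625 in HRA and 543 to 860 in parental libraries, and S100A8 and S100A9 among them rose in HRD by 4.55 ± 0.48 and 3.81 ± 0.40 on the log2 scale (SE; limma adjusted p = 1.65e-04 and 1.28e-04). S100A8 averaged under 10 in parental cells and passed the filter through HRD, the other 3 of the 5 tested neutrophil markers did not pass in HRD, and CXCR2 among them differed there by -0.18. Whether these differences have a part in the HRD values below was not tested. In bulk RNA, more cells that express a gene and more RNA of it per cell cannot be told apart.

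Of the 10 genes, 5 passed the test as higher in HRD than in parental cells (limma on log2(value + 1), adjusted p below 0.05 by Benjamini-Hochberg), none passed as lower and 5 did not pass. Among all tested genes 10.7% passed as higher and 12.0% as lower, 22.8% in either direction. In HRA, 6 of the 10 passed as higher than in parental cells, none as lower and 4 did not pass, where 9.13% of all tested genes passed as higher and 6.1% as lower, 15.2% in either direction. The median log2 fold change of the 10 was 0.65 in HRD and 0.68 in HRA, against 0.01 and -0.01 over all tested genes. The 3 resistant libraries lay above the 3 parental ones for 6 of the 10 in HRD (17.1% of all tested genes) and for 7 of the 10 in HRA (19.3%). Both comparisons use the same 3 parental libraries, so their values are given side by side and not as independent results. The 10 genes were chosen with earlier results of these data known, and CXCL10 entered the test through the resistant cells. The counts and medians beside those of all tested genes are therefore a description and no test of the set. Leaving out 1 library changed the number passed to between 1 and 5 in HRD and between 3 and 6 in HRA, and the libraries that decide a call are named with each gene.

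**Figure D1:**
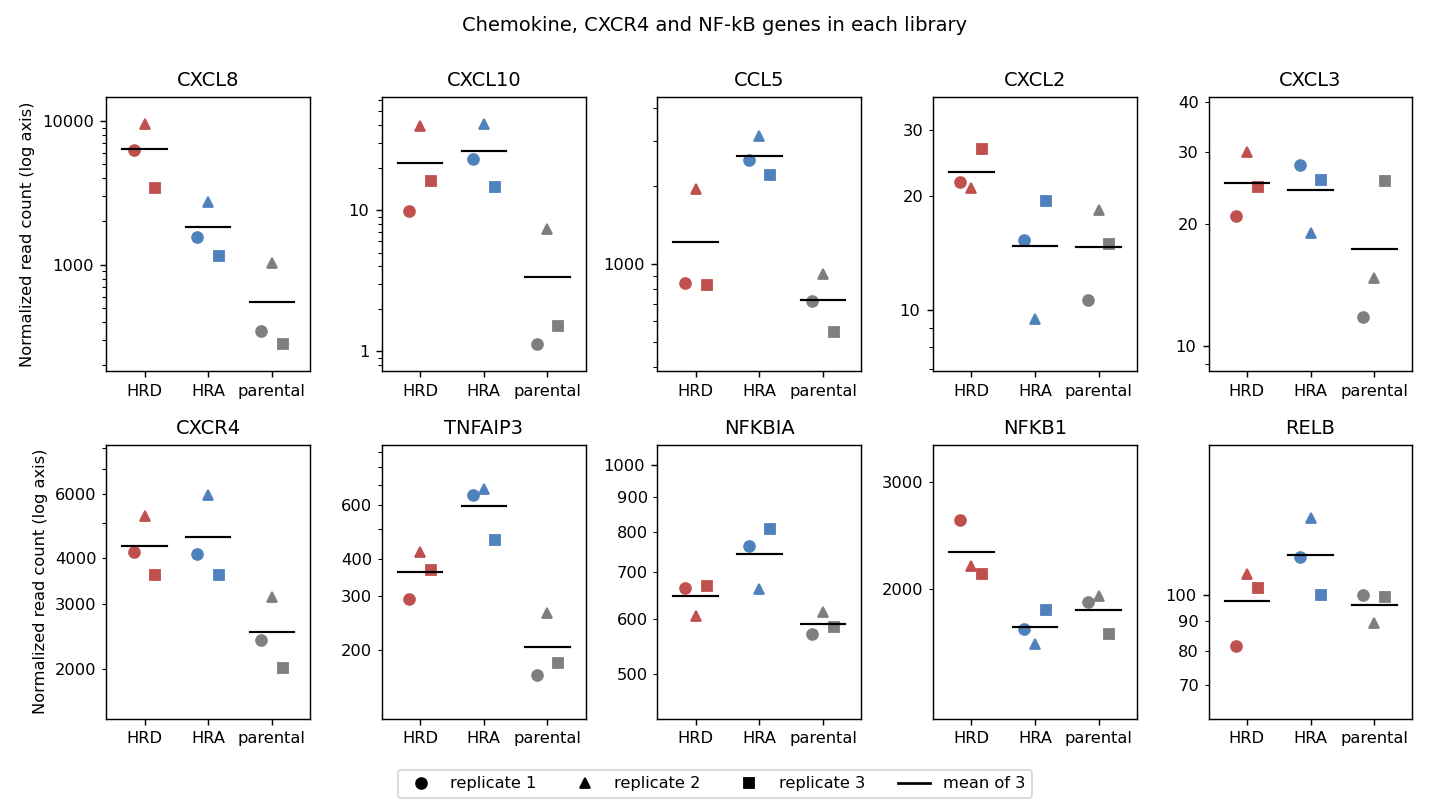
Normalized read count (log axis) of each of the 10 genes in each library, with HRD left, HRA in the middle and parental cells right in each panel. Symbols give the replicate and bars the mean of 3. CXCL8 separates into 3 levels, CCL5 and TNFAIP3 are highest in HRA, and the groups overlap in CXCL3.

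CXCL8, the interleukin-8 chemokine that attracts neutrophils, had the largest log2 fold change of the 10 in HRD over parental cells. It had 6295, 9448 and 3415 normalized reads in HRD replicates 1, 2 and 3, against 1562, 2749 and 1145 in HRA and 345, 1021 and 282 in parental libraries. The 3 groups did not overlap, and the lowest HRD library lay above the highest HRA library, which in turn lay above the highest parental library. The means were 6386 ± 3017 in HRD, 1819 ± 832 in HRA and 549 ± 410 in parental cells (SD, n = 3 in each group here and below). On the log2(value + 1) scale CXCL8 was higher by 3.66 ± 0.48 in HRD than in parental cells (SE, 12.7-fold, limma adjusted p = 3.49e-04) and by 1.87 ± 0.48 in HRA (3.67-fold, adjusted p = 0.0248). The HRD call held under all 18 other settings, with adjusted p between 6.06e-07 and 0.00243. The HRA call held under 13 of 18 and was lost without HRA replicate 1 (0.0684), HRA replicate 2 (0.0976), parental replicate 1 (0.0727) or parental replicate 3 (0.0893) and with DESeq2 (0.0543). With the replicate number as a block, the limma adjusted p of CXCL8 in HRA was 1.42e-04. Taken by replicate number, the HRD over parental ratios were 18.2, 9.26 and 12.1 and the HRA over parental ratios 4.53, 2.69 and 4.06. Replicate 2 was highest in each group, and the lowest of these same-numbered ratios was 2.69. The numbers are no shown pairing for HRD and parental libraries, so the HRD ratios by number are only a description.

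CXCL10, the interferon-inducible ligand of CXCR3 on activated T cells, was scarce everywhere and higher in both resistant lines. It had 9.92, 39.2 and 16.0 normalized reads in HRD, 23.0, 40.6 and 14.6 in HRA and 1.12, 7.36 and 1.5 in parental libraries. Behind these stand 61 reads in HRD, 75 in HRA and 9 in parental libraries. Neither resistant line overlapped the parental range, and the ranges of HRD and HRA lay over each other. The log2 fold change was 2.47 ± 0.63 in HRD (95% interval 1.08 to 3.85, limma adjusted p = 0.0161) and 2.82 ± 0.63 in HRA (1.44 to 4.2, adjusted p = 0.0131). With so few parental reads the fold is imprecise: it was 5.52-fold in HRD and 7.06-fold in HRA from limma, and 6.61-fold and 8.63-fold from edgeR on the recovered reads. The HRD call was lost without HRD replicate 2 (adjusted p = 0.066), parental replicate 1 (0.0566) or parental replicate 3 (0.0551), and the HRA call without HRA replicate 2 (0.0600).

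CCL5 (RANTES), which attracts T cells, monocytes and eosinophils, passed as higher in HRA and did not pass in HRD. Its values were 847, 1958 and 831 in HRD, 2514, 3113 and 2209 in HRA, and 720.0, 917 and 547 in parental libraries. Every HRA library lay above every HRD and every parental library, and HRD overlapped the parental range. CCL5 was higher by 1.86 ± 0.30 in HRA than in parental cells (log2 scale, 3.63-fold, limma adjusted p = 0.00225), and this held under all 18 other settings. In HRD the difference from parental cells was 0.64 ± 0.30 (adjusted p = 0.145), and it passed under 1 of 18 settings, in which the replicate number was a block (adjusted p = 0.0141). By replicate number, which is no shown pairing for HRD, the ratio to parental cells was 1.18, 2.14 and 1.52 in HRD and 3.49, 3.40 and 4.04 in HRA. Between the resistant lines the difference itself was tested: CCL5 was lower in HRD than in HRA by 1.21 on the log2 scale (2.32-fold, limma adjusted p = 0.0105), under all 18 other settings as well.

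CXCL2 and CXCL3, close relatives of CXCL1 that act on neutrophils through CXCR2, were scarce and did not pass in any comparison. CXCL2 had 21.8, 21.1 and 26.7 normalized reads in HRD, 15.4, 9.47 and 19.5 in HRA and 10.7, 18.4 and 15.0 in parental libraries. CXCL3 had 20.8, 30.1 and 24.6 in HRD, 27.9, 18.9 and 25.6 in HRA and 11.8, 14.7 and 25.5 in parental libraries. The 3 HRD libraries of CXCL2 lay above every HRA and parental library, while for CXCL3 the ranges of the 3 groups overlapped. For CXCL2 the log2 fold change was 0.65 in HRD (95% interval -0.11 to 1.41, limma adjusted p = 0.210) and -0.01 in HRA (-0.78 to 0.75, adjusted p = 0.982). For CXCL3 it was 0.57 in HRD (-0.17 to 1.31, adjusted p = 0.257) and 0.51 in HRA (-0.23 to 1.25, adjusted p = 0.332). These intervals include both no change and a change of more than 1 log2 unit in HRD, at 44 to 85 reads per group. Of the CXCL2 transcript, 4.62% of all 50-base words also occur in CXCL3 and 5.13% in CXCL1, so a small part of its reads may not have been assignable to 1 gene. CXCL1 itself was absent from the deposited values. CXCL8 shares no such word with the other CXCL genes compared.

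CXCR4, the CXCL12 receptor, was higher in both resistant lines. It had 4168, 5208 and 3591 normalized reads in HRD, 4112, 5945 and 3606 in HRA and 2398, 3129.8 and 2004 in parental libraries. No resistant library fell within the parental range, and HRD and HRA overlapped. The log2 fold change from parental cells was 0.79 ± 0.20 in HRD (1.73-fold, limma adjusted p = 0.0165) and 0.85 ± 0.20 in HRA (1.80-fold, adjusted p = 0.0177). HRD and HRA differed by -0.06 on that scale, with a 95% interval of -0.51 to 0.39 (adjusted p = 0.851). The HRD call was lost without HRD replicate 2 (0.062) or parental replicate 3 (0.0676), and the HRA call without HRA replicate 2 (0.0666) or parental replicate 3 (0.0653). With the replicate number as a block, the limma adjusted p of CXCR4 in HRA was 9.57e-05. By replicate number, the ratio to parental cells was 1.74, 1.66 and 1.79 in HRD and 1.72, 1.90 and 1.80 in HRA. This range is narrow next to the spread between replicates within a group. For HRD and parental libraries, however, the numbers are no shown pairing.

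**Figure D2:**
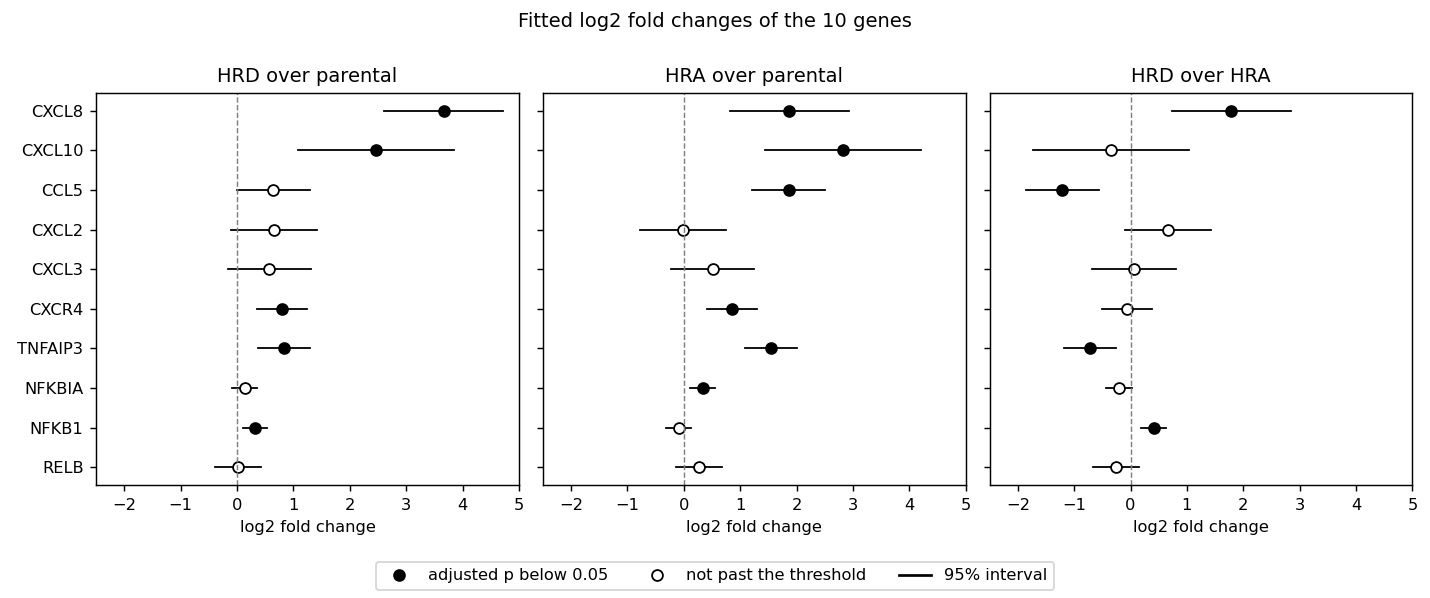
Log2 fold change of each of the 10 genes with its 95% interval (horizontal lines), for HRD over parental, HRA over parental and HRD over HRA, on the log2(value + 1) scale. Filled points passed at a limma adjusted p below 0.05. CXCL8 reaches 3.66 in HRD, CCL5 and TNFAIP3 lie further right in HRA than in HRD, and the intervals of CXCL2, CXCL3 and RELB include 0 in each comparison.

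TNFAIP3 encodes A20, which removes activating ubiquitin chains from adaptors of the TNF and Toll-like receptor pathways and so shuts NF-kB signalling down. It was higher in both resistant lines, and more so in HRA. The values were 293, 419 and 368 in HRD, 648, 680.4 and 459 in HRA, and 166, 265 and 181 in parental libraries, without overlap between any of the 3 groups. The log2 fold change from parental cells was 0.83 ± 0.21 in HRD (1.78-fold, limma adjusted p = 0.0155) and 1.55 ± 0.21 in HRA (2.93-fold, adjusted p = 9.73e-04). The HRA call held under all 18 other settings. The HRD call held under 15 of 18 and was lost without HRD replicate 2 (0.0585), parental replicate 1 (0.0559) or parental replicate 3 (0.0542).

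NFKBIA encodes IkB-alpha, the inhibitor that NF-kB induces within minutes of its activation and that carries it back out of the nucleus. It had 665, 606 and 669 normalized reads in HRD, 763, 663 and 809 in HRA and 569.6, 613 and 583 in parental libraries. HRA lay above the parental range, and HRD replicate 2 fell inside it. Its log2 fold change was 0.13 ± 0.10 in HRD (adjusted p = 0.389) and 0.33 ± 0.10 in HRA (1.26-fold, adjusted p = 0.0497, both by limma). The HRA value sits at the threshold: it held under 7 of 18 other settings. Without HRA replicates 1 or 3 the adjusted p was 0.161 and 0.163, without parental replicates 1, 2 or 3 it was 0.11, 0.0826 and 0.102, and without HRD replicates 2 or 3 it was 0.0533 and 0.0604.

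NFKB1 encodes p105, the precursor of the DNA-binding subunit p50. Its values were 2602, 2179.7 and 2117 in HRD, 1716, 1623 and 1847 in HRA and 1901, 1945 and 1683 in parental libraries. HRD lay above both other groups, while HRA and parental libraries overlapped. From parental cells it differed by 0.32 ± 0.10 on the log2 scale in HRD (limma adjusted p = 0.0413) and -0.09 ± 0.10 in HRA (adjusted p = 0.566). The HRD call held under 7 of 18 other settings, and leaving out any library other than HRD replicate 3 ended it, with adjusted p from 0.0511 without HRA replicate 2 to 0.132 without parental replicate 3. The values between these were 0.106 and 0.0603 without HRD replicates 1 and 2, 0.0672 and 0.0537 without HRA replicates 1 and 3, and 0.0633 and 0.0545 without parental replicates 1 and 2.

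RELB, the subunit of the non-canonical pathway that pairs with p52, differed little. It had 81.9, 108 and 103 normalized reads in HRD, 116, 135 and 99.9 in HRA and 99.9, 89.6 and 98.9 in parental libraries. The HRD and parental ranges overlapped, and HRA replicate 3 stood barely above the highest parental library. On the log2 scale the difference was 0.01 in HRD (95% interval -0.39 to 0.42) and 0.27 in HRA (-0.13 to 0.68), with limma adjusted p of 0.970 and 0.344.

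Set directly against each other, the resistant lines differed in 4 of the 10 genes. CXCL8 and NFKB1 were higher in HRD than in HRA (2 of 10, with 13.9% of all tested genes higher), and CCL5 and TNFAIP3 were lower (2 of 10, with 16.2% lower). The groups did not overlap for 3 higher and 2 lower genes, against 22.8% and 24.2% of all tested genes. CXCL8 was higher by 1.79 ± 0.48 on the log2 scale (3.46-fold, limma adjusted p = 0.0175) and NFKB1 by 0.41 ± 0.10 (1.33-fold, adjusted p = 0.0109). TNFAIP3 was lower in HRD by 0.72 (1.65-fold, adjusted p = 0.0246), and CCL5 as given above. The share of genes called is near 30.1% in this comparison, so 4 of 10 is not far from the background. For CXCL10, CXCL3, CXCR4, NFKBIA and RELB the difference was -0.35, 0.06, -0.06, -0.20 and -0.26, and for CXCL2 it was 0.66 (adjusted p = 0.170), none of which passed. The CXCL8 call was lost without HRD replicates 1 or 2 (adjusted p = 0.053 and 0.0584) and without HRA replicates 1 or 3 (0.0571 and 0.0663). The TNFAIP3 call was lost without HRD replicates 1 or 3 (0.0866 and 0.0512) and without HRA replicates 1 or 2 (0.0929 and 0.0888), and the NFKB1 call held without any single library.

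The replicates moved together in several of these genes. Replicate 2 had the highest value in all 3 groups for CXCL8, CXCL10, CCL5, CXCR4 and TNFAIP3, that is for 5 of the 10 genes and for 11.2% of all tested genes. Replicate 3 had the lowest value in all 3 groups for CXCL8, CCL5 and CXCR4, and for 7.61% of all tested genes. CXCL2, CXCL3, NFKBIA, NFKB1 and RELB did not keep such an order. With replicate 2 of every group left out, a setting chosen after seeing these values, CXCL8 was higher by 3.89 in HRD and 2.1 in HRA on the log2 scale (limma adjusted p = 5.89e-06 and 0.00128). CXCR4 was higher by 0.82 in HRD and 0.81 in HRA (adjusted p = 0.00355 and 0.00749), and TNFAIP3 by 0.92 and 1.65 (0.0178 and 0.00179). CXCL10 was higher by 2.57 in HRD and 3.07 in HRA (0.0139 and 0.0113), and CCL5 by 1.91 in HRA (1.32e-04). These calls of the 5 genes passed in this fit too, while those of NFKBIA in HRA (0.0828) and NFKB1 in HRD (0.0901) were lost. Replicate 2 was picked because it was highest for these same 5 genes, so this fit is no independent support for their calls. What sets replicate 2 apart is not given in the labels.

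**Figure D3:**
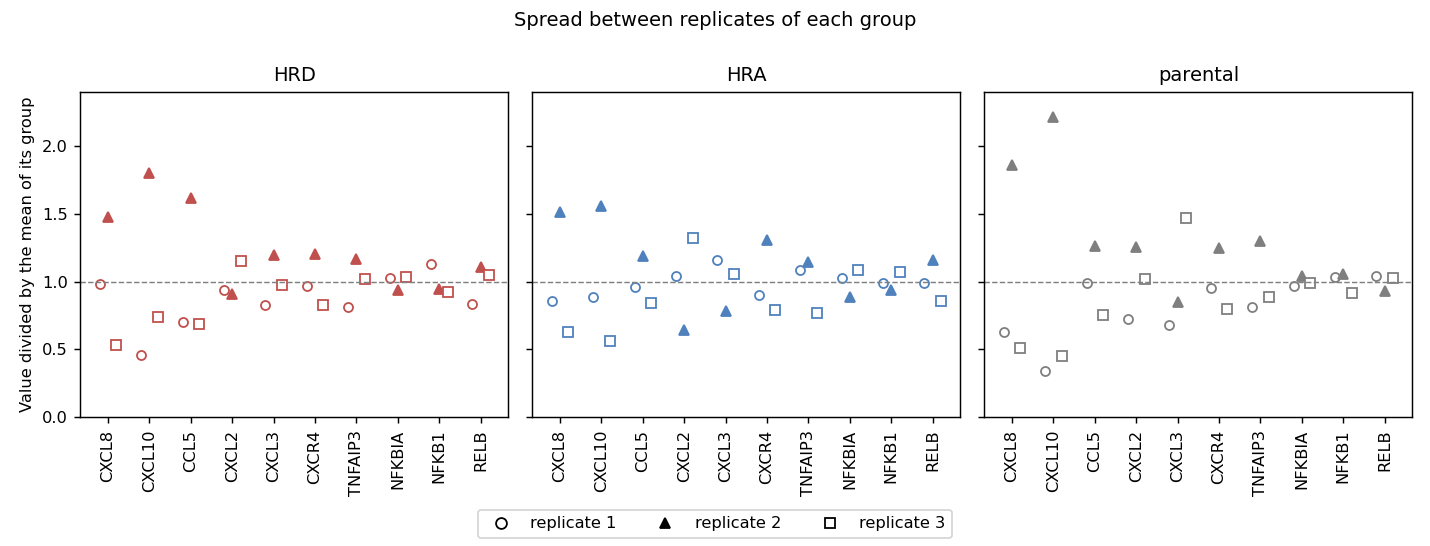
Normalized read count of each library divided by the mean of its group, for the 10 genes in HRD, HRA and parental cells, with a symbol for each replicate and a dashed line at the group mean. Replicate 2 (filled triangles) is uppermost in all 3 panels for CXCL8, CXCL10, CCL5, CXCR4 and TNFAIP3, and takes varying places for the other genes.

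The neighbours of the genes on the chromosome are described by their medians, around which single neighbours differed. Whether a shared region has a part in the values was not tested. CXCL8 lies in the CXC chemokine cluster of chromosome 4, and the 8 nearest tested protein-coding genes (outside the 10) had a median log2 fold change of 0.07 in HRD and -0.11 in HRA. They ranged from -0.23 to 1.26 in HRD and from -0.48 to 1.03 in HRA. The upper value was that of AREG in both, which did not pass. Within that cluster CXCL6 had 45 reads in HRD, 29 in HRA and 16 in parental libraries and did not pass, PPBP had 0, 3 and 0, and CXCL5 had 0, 2 and 0. CXCL11, next to CXCL10, had 58, 47 and 36 reads and did not pass (log2 fold change 0.48 in HRD and 0.03 in HRA), and CXCL9 had 1 read in each group. CXCL8 and CXCL10 were thus the only chemokine genes of the cluster with a call among those in the table. The 10 nearest tested neighbours of CXCL10 had a median of 0.33 in HRD and -0.02 in HRA. Of these, 2 passed as higher in HRD (USO1 and NAAA, both at 0.43) and 1 in HRA (SCARB2 at 0.34), and none as lower.

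CCL5 stood among genes that were lower in HRD. Of its 10 nearest tested neighbours on chromosome 17, 8 passed as lower and 1, CCL23, as higher in HRD than in parental cells, and their median log2 fold change was -0.96, against -0.19 over the chromosome. In HRA the neighbours' median was 0.06 and 1 of 10, again CCL23, passed as higher. CCL5 itself was at 0.64 in HRD and 1.86 in HRA, above the median of its neighbours in both. For CXCR4, TNFAIP3, NFKBIA, NFKB1 and RELB the neighbours' medians lay between -0.21 and 0.15 in HRD and between -0.13 and 0.24 in HRA. The upper value is that of RELB, on chromosome 19, whose median over all tested genes was 0.30 in HRA. Single neighbours stood apart from these medians. Of the 10 neighbours of TNFAIP3, 2 passed as higher in HRD (IL22RA2 at 2.01 and IFNGR1 at 0.51) and 2 as lower. HNMT, next to CXCR4, was at 1.97 in HRD and did not pass.

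**Figure D4:**
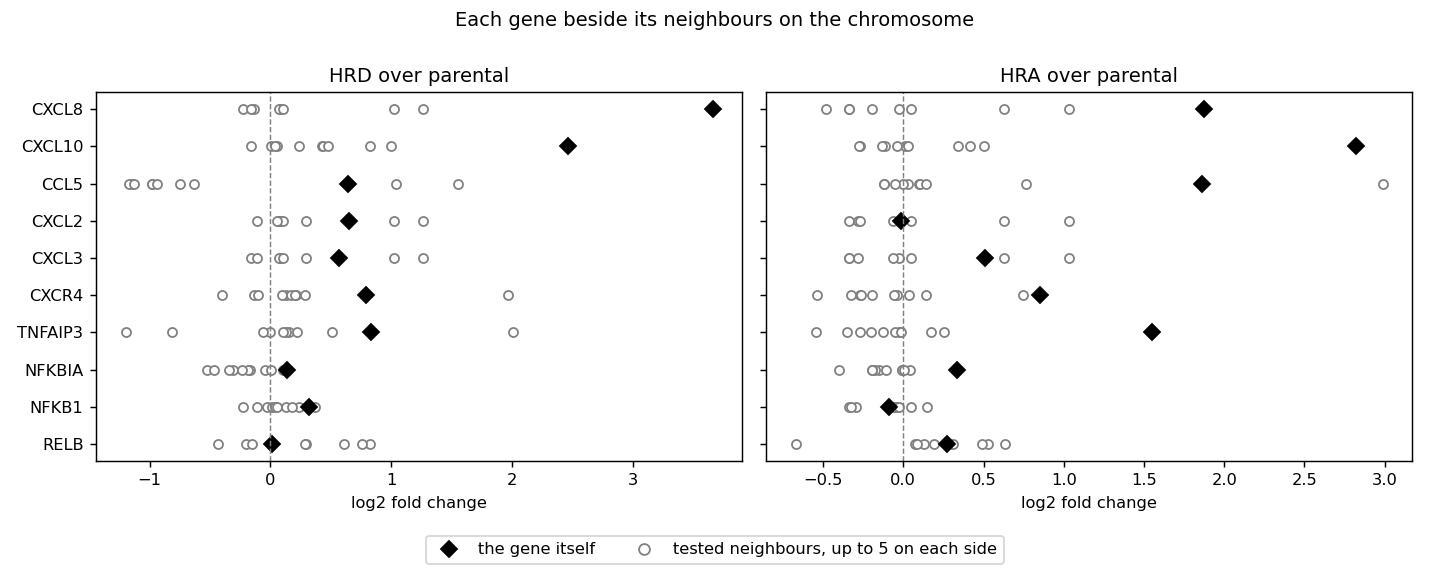
Log2 fold change over parental cells of each of the 10 genes (filled diamonds) and of up to 5 tested protein-coding neighbours on either side (open circles), for HRD and HRA. CXCL8 and CXCL10 lie to the right of every neighbour in both panels, and most neighbours of CCL5 lie below 0 in HRD.

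Around the 10 genes, 237 other genes of the pathway were followed in 9 lists, of which 197 were in the table and 152 were tested. In HRD 29 of these 152 passed as higher (19.1%) and 15 as lower (9.87%), beside 10.7% and 12.0% of all tested genes. In HRA 31 passed as higher (20.4%) and 6 as lower (3.95%), beside 9.13% and 6.1%. Over all tested genes, 1148 were higher and 767 lower in HRA, and 1572 and 1202 once replicates were blocked by number. Between HRD and HRA, 24 of 152 were higher (15.8%) and 31 lower (20.4%), beside 13.9% and 16.2% of all tested genes. Genes that parental cells hardly express can enter the test only through a resistant line, which here applies to CXCL6, CCR8, CD40, BCL2A1, MMP9 and TNFAIP6. These genes are part of the 152. The lists were also chosen with earlier results of these data known, so the shares describe the lists and are no test of an excess.

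Among the other ligands, 4 of the 20 in the table were tested and CCL23, a ligand of CCR1, was the only one to pass. It averaged 48.1 ± 18.9 in HRD, 177.7 ± 23.4 in HRA and 21.5 ± 2.24 in parental cells, which is a log2 fold change of 1.04 ± 0.30 in HRD (limma adjusted p = 0.0287) and 2.99 ± 0.30 in HRA (1.67e-04). Like CCL5, its neighbour on chromosome 17, it was highest in HRA. Among 10 tested receptors, 2 passed as higher and 1 as lower in HRD, and 3 as higher in HRA. CCR1, a receptor of CCL5 and CCL23, averaged 402.8 in HRD, 309.8 in HRA and 189.9 in parental cells and rose by 1.11 in HRD and 0.73 in HRA (adjusted p = 0.00204 and 0.0273). CCRL2, an atypical chemoattractant receptor, rose by 1.80 in HRA (0.0393). CCR7, which guides cells to lymph nodes, averaged 28.8 in HRD, 279.9 in HRA and 317.0 in parental cells and fell by 3.44 in HRD (3.76e-07), where the median of its neighbours on chromosome 17 was -0.88.

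Of the other 3 NF-kB subunits, RELA (p65) rose by 0.30 in HRD and 0.34 in HRA (limma adjusted p = 0.0364 and 0.0302), and REL and NFKB2 did not pass. Among 22 tested inhibitors and feedback genes, 2 passed as higher and 2 as lower in HRD, and 6 as higher and 1 as lower in HRA. NFKBIB (IkB-beta) averaged 674.3 in HRD, 1491 in HRA and 904.2 in parental cells, so that it fell by 0.42 in HRD (adjusted p = 0.0121) and rose by 0.73 in HRA (0.00105). TAX1BP1, an adaptor through which A20 acts, rose by 0.42 in HRD and 0.48 in HRA (0.00182 and 0.00154). ITCH, a ubiquitin ligase of the A20 complex, fell by 0.74 in HRD (1.14e-04). The neighbours of NFKBIB and TAX1BP1 had medians of 0.33 and 0.43 in HRA, so nearby genes lay higher there too. Around RELA the medians were 0.15 in HRD and 0.26 in HRA, and around ITCH the median was -0.29 in HRD. The part of nearby genes in these values was not tested.

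Upstream of NF-kB, 34 kinases and adaptors were tested, with 3 higher and 8 lower in HRD and 5 higher and none lower in HRA. MAP3K8 (TPL2), the kinase that p105 holds inactive, averaged 416.5 in HRD, 342.5 in HRA and 165.7 in parental cells and rose by 1.35 and 1.07 (limma adjusted p = 2.74e-04 and 0.00245). ERC1, a partner of the IkB kinase, fell by 0.94 in HRD (9.29e-05). IRAK4, the kinase behind Toll-like receptors, fell there by 0.48 (0.0014) and MAP3K14, the kinase of the non-canonical pathway, by 1.09 (0.00165). In HRD the median of the neighbours was -0.29 for ERC1, -0.30 for IRAK4 and -0.77 for MAP3K14. Whether a shared region has a part in these falls was not tested. IKBKB, a catalytic subunit of the IkB kinase, and RIPK2, the kinase of NOD receptors, rose by 0.47 and 0.59 in HRA (0.0123 and 0.00662), and their neighbours on chromosome 8 had medians of 0.50 and 0.51.

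Receptors that signal to NF-kB gave 3 higher and 2 lower in HRD and 6 higher and 2 lower in HRA, of 19 tested. IL1RL1, the interleukin-33 receptor, averaged 148.4 in HRD, 31.8 in HRA and 22.0 in parental cells and rose by 2.76 in HRD (limma adjusted p = 1.06e-04). TLR4, the receptor for lipopolysaccharide, rose by 0.80 in HRA (0.00301), and TLR1 by 1.12 in HRD and 1.27 in HRA (0.0243 and 0.0195). CD40 averaged 0.502 in HRD, 33.5 in HRA and 5.52 in parental cells, with 1, 93 and 15 reads in all, and fell in HRD (adjusted p = 0.0294) while it rose in HRA (0.0210).

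Other NF-kB targets numbered 20 tested, with 5 higher and 1 lower in HRD and 4 higher and 1 lower in HRA. IER3, an early response gene, averaged 296.4 in HRD, 37.9 in HRA and 35.2 in parental cells and rose by 3.17 ± 0.54 in HRD (limma adjusted p = 0.00184). MMP9, the gelatinase, and BCL2A1, an anti-apoptotic BCL2 relative, rose by 3.85 and 2.49 in HRD (0.0042 and 0.00528). Both averaged under 10 in parental cells and so entered the test through a resistant line. CFLAR, the FLICE inhibitor, averaged 1165 in HRD, 634.2 in HRA and 921.5 in parental cells, and rose by 0.34 in HRD (0.0207) and fell by 0.54 in HRA (0.00332).

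Of 22 tested interferon sensing and response genes, 6 passed as higher and 1 as lower in HRD and 3 as higher in HRA. USP18, an interferon-induced brake on the receptor, rose by 1.01 in HRD (limma adjusted p = 0.00395). The receptor subunits IFNGR1 and IFNAR2 rose there by 0.51 and 0.54 (0.00159 and 0.00564). In HRD the median of the neighbours was 0.15 for USP18, 0.10 for IFNGR1 and 0.55 for IFNAR2. The part of nearby genes in these values was not tested. IFNAR1 and IFNAR2 rose by 0.53 and 0.49 in HRA (0.00397 and 0.0142), where their neighbours on chromosome 21 had medians of 0.37 and 0.38. Of 18 tested genes of CXCR4 signalling and turnover, 6 passed as higher and none as lower in HRD, and 2 as higher and 2 as lower in HRA. ARRB1, an arrestin that takes CXCR4 off the membrane, averaged 1722 in HRD, 914.3 in HRA and 576.7 in parental cells and rose by 1.59 and 0.68 (1.04e-05 and 0.00542). PTK2B, a focal adhesion kinase relative activated by chemokines, rose by 0.57 in HRD and 0.87 in HRA (7.18e-04 and 1.29e-04), and GNG2, a G protein gamma subunit, by 1.26 in HRD (1.87e-04). The neighbours of PTK2B had medians of 0.26 in HRD and 0.43 in HRA, and those of GNG2 a median of -0.31 in HRD.

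**Figure D5:**
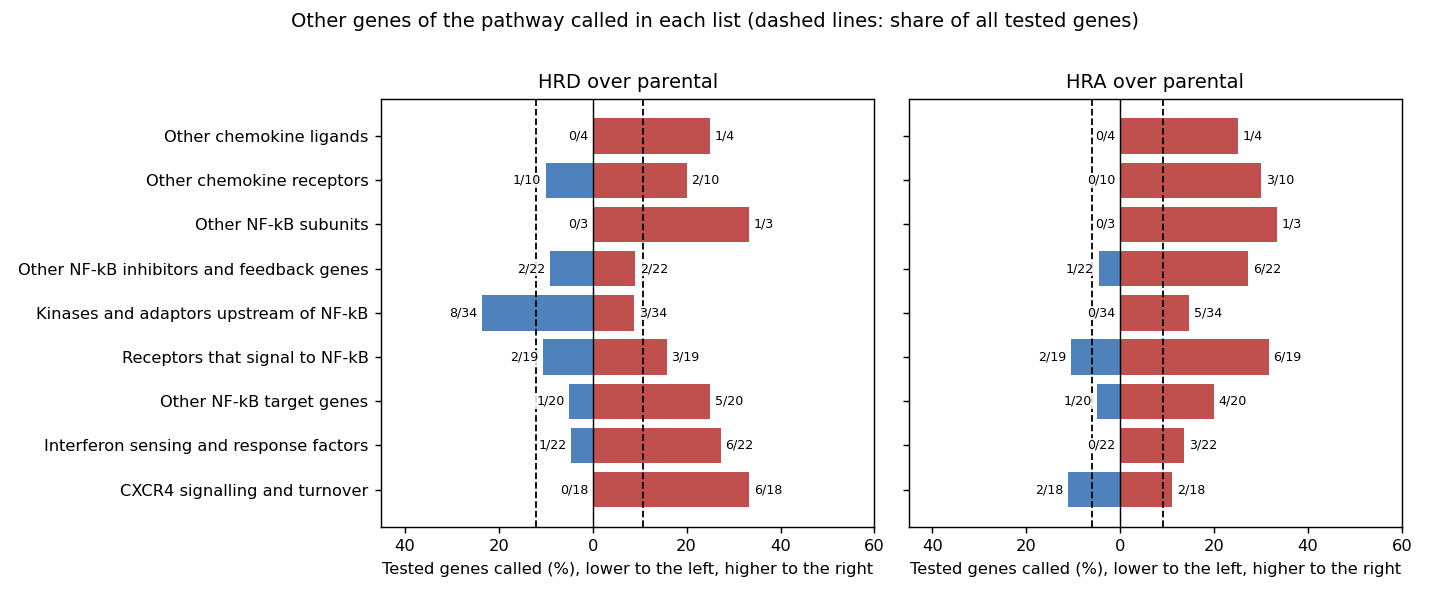
Share of the tested genes of each of the 9 other pathway lists that passed as higher (bars to the right) or lower (bars to the left) in HRD and in HRA over parental cells, in percent, with the number passed of the number tested beside each bar. Dashed lines give the shares of all tested genes. In HRD the kinases and adaptors have 8 of 34 lower, and in HRA no gene of that list is lower.

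Several other genes ran closely with the 10 across the 9 libraries. By Pearson's r of log2(value + 1), the nearest to CXCL8 were AP1S2 (0.995) and ALOX5AP (0.992), to CXCL10 TRG (0.990) and IL10RB (0.987), and to CCL5 GYS1 (0.994) and TMEM205 (0.983). For CXCR4 they were JAZF1 (0.976) and IL10RB (0.974), for TNFAIP3 CCNA1 (0.981) and ECE1 (0.980), for NFKB1 SPG21 (0.981) and GALNT10 (0.973), and for RELB FLT3LG (0.988) and SLC39A4 (0.959). NFKBIA had weaker partners in GPR85 (0.959) and MED23 (0.953). So did CXCL2, with LOC102723672 (0.923) and BAG3 (0.913), and CXCL3, with ERN1 and SNRPA (both 0.906). Among the 10 themselves CXCR4 ran closest to CXCL10 (0.95) and TNFAIP3 to CXCL10 and CCL5 (both 0.92), while NFKB1 and RELB ran in opposite directions (-0.68). The 9 points share 3 groups and the replicate numbers, so these values describe these libraries only.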

How the data were processed

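The deposited values are a signal per gene, namely read counts that the authors divided by a size factor of each library, for 20637 genes in 9 libraries. The submitters' processing notes list the aligners Bowtie2 2.3.5.1 and TopHat2 2.1.1, the tools HTSeq 0.11.1, Cufflinks 2.2.1, Picard and DESeq2, and the build hg19, and per the labels' protocols a stranded mRNA kit was used. How each tool was used, which annotation was counted and whether strand was used are not given in the sources used here. All values (100%) were whole multiples of 1 constant per library within 0.001, so whole reads were recovered. Between replicates these reads had a chi-square of 14.4 to 56.7 per degree of freedom, where counting error alone gives about 1.

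Values were taken as log2(value + 1) for the 12569 genes with at least 10 in at least 3 libraries. All 9 libraries entered a single linear model, fitted with limma 3.58.1 under R 4.3.3 (with a mean-variance trend), and p-values were adjusted over all tested genes (Benjamini-Hochberg, below 0.05). Fold changes on this scale understate those of low genes. An exact permutation test of 3 against 3 cannot go below 0.1. The 10 genes, the lists and the tests were chosen with earlier results of these data known. All 10 are named, then up to 4 genes per list with the smallest adjusted p in a comparison, and the 2 genes most correlated with each of the 10. Cell type markers and CXCL6, CXCL9, CXCL11, PPBP, CXCL5, REL and NFKB2 are named beside them for context, outside that rule. A gene of the receptor list is counted but not reported here by name.

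The replicate numbers come from the sample titles, which do not say that a number marks a shared culture. Same-numbered HRA and parental libraries deviated together (correlations 0.22, 0.38 and 0.14). A fit with this number as a block was run as an alternative. The main fit and those without 1 library have no block and so leave this pairing aside. With the block, the limma adjusted p in HRA over parental was 1.42e-04 for CXCL8, 0.0012 for CXCL10 and 1.47e-04 for CCL5. For CXCR4 it was 9.57e-05, for TNFAIP3 3.10e-04 and for NFKBIA 0.0354. The block is also given where it changes a call or a count. For HRD and parental libraries the correlations were -0.078, 0.26 and 0.29, and for HRD and HRA libraries -0.029, 0.41 and 0.23. Of 18 alternatives 17 were planned: pseudocounts of 0.5 and 5, no filter, the block, a fit of the 2 groups alone, TMM scaling, edgeR 4.0.16 (quasi-likelihood) and DESeq2 1.42.0 on the recovered reads, and each library left out. Gene order and promoters come from RefSeq tables of GRCh38.p14, matched by symbol, and 50-base words from the reference transcripts. The counts themselves were made on hg19, and no coordinates were carried between the builds.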

Additional observations from a re-analysis of the deposited data

Results flagged for a closer look

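In 4 of the 10 genes the response over the shared parental libraries differed between the resistant lines, as tested by limma directly in HRD over HRA, where 30.1% of all tested genes passed. The log2 fold change of HRD over HRA was 1.79 for CXCL8 (adjusted p = 0.0175; all 3 HRD libraries above all 3 HRA libraries) and 0.407 for NFKB1 (0.0109; likewise). It was -1.21 for CCL5 (0.0105) and -0.721 for TNFAIP3 (0.0246), with all 3 HRD libraries below all 3 HRA libraries in both. Over all 18 alternatives the adjusted p ran from 6.29e-05 to 0.0663 for CXCL8, from 0.00168 to 0.0736 for NFKB1, from 1.92e-04 to 0.0451 for CCL5 and from 0.00336 to 0.0929 for TNFAIP3.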

How the results depend on the processing

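Each of the 10 genes was recomputed in 3 comparisons under 18 alternatives, 540 values in all, of which 474 kept their direction and side of the threshold, 47 kept the direction and lost the call, 1 gained one and 18 changed sign. All changes of sign were in differences that had not passed. For CXCL2 in HRA over parental they were 0.0834 with edgeR, 0.0584 with DESeq2, 0.423 without replicate 2 of every group, and 0.0146 to 0.254 in 3 of the fits without 1 library, which ranged from -0.23 to 0.254. For RELB in HRD over parental they were -0.116 without replicate 2 of every group, and -0.0665 to -0.0267 in 3 of the fits without 1 library (range -0.0665 to 0.134). In HRD over HRA, the range without 1 library was -0.874 to 0.0655 for CXCL10, -0.0981 to 0.184 for CXCL3 and -0.211 to 0.15 for CXCR4, and without replicate 2 of every group CXCL3 gave -0.231 and CXCR4 0.00666. The cause was not tested.

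Leaving out 1 library, 898 to 1335 genes were higher and 1136 to 1564 lower in HRD over parental, with 1 to 5 of the 10 higher (1 without HRD replicate 2 or parental replicate 3, 2 without parental replicate 1). In HRA over parental 575 to 1352 were higher and 328 to 965 lower, with 3 to 6 of the 10 higher (3 without HRA replicate 2 or parental replicate 3). In HRD over HRA 1049 to 1848 were higher and 1342 to 2085 lower, with 1 to 2 of the 10 higher and 1 to 2 lower. Without replicate 2 of every group, chosen after seeing the data, 740 genes were higher and 730 lower in HRD over parental, 481 and 231 in HRA over parental, and 765 and 1060 in HRD over HRA, where 1 of the 10 was higher. Fewer samples enter these fits.

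With the replicate block, 1202 genes were lower in HRA over parental and 6 of the 10 were higher, as without it, and 2 were higher and 2 lower in HRD over HRA. In HRD over parental 6 were higher, CCL5 being added (adjusted p = 0.0141). For the comparisons with HRD the numbers are no shown pairing: 4 of 6 libraries correlated best with their own number, against 6 of 6 in HRA over parental. The replicate block changed no other call of the 10. edgeR and DESeq2 called 5 and 5 of the 10 higher in HRD over parental, and 6 and 5 in HRA over parental. CXCL10, CXCL2 and CXCL3 rest on 9 to 85 reads per group.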
